A study of Mus musculus with 7 samples.

Results

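The replication-dependent histone genes are the members of the histone gene clusters, whose older mouse symbols begin with Hist1h, Hist2h, Hist3h or Hist4h. They were taken by transcript accession, or for 1 gene, Hist3h2bb, by the name in the table, with the row of highest mean for each gene and a value above 0 in at least 3 of the 7 libraries. This gave 68 genes of 20295 in the table: 6 for the linker histone H1, 18 for H2a, 19 for H2b, 12 for H3 and 13 for H4. The series followed RNA levels in mouse E14 embryonic stem cells kept in 2i, a medium whose kinase inhibitors maintain naive pluripotency. Every library came from cells with the Brn2-RFP GAVPO induction cassette, in which the light-switched factor GAVPO drives Brn2, a POU-domain factor of neural cells, with a red fluorescent protein. Cells were exposed to LED light of 300 µW for 0, 2, 4, 6, 14, 24 or 48 h, in Ibidi plates, and each time is 1 library. No time has a replicate, and there is no library here of cells without the cassette. The labels do not say whether the line is 1 clone.

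These genes supply the bulk histones that package newly made DNA, and each histone protein is encoded by several near-identical genes. H2a, H2b, H3 and H4 form the core of the nucleosome, and H1 binds the linker DNA between nucleosomes. In cycling cells their mRNAs are made mainly in S phase and end in a conserved stem-loop, bound by Slbp, in place of a poly(A) tail. Npat, a target of cyclin E and Cdk2, brings the transcription machinery to the clusters. Some cluster genes also give longer mRNAs with a poly(A) tail, mostly in cells that have left the cycle. The labels name total RNA and a Lexogen SENSE kit. Not given in the sources used here is whether RNA was selected by its poly(A) tail.

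The deposited value of a gene behaves as reads per kilobase of its genomic span, scaled to library size, and the library sizes implied by the values ran from 7.04 to 16.1 M reads. Of the 69 rows of the 68 genes, 50 gave whole reads in every library within 0.03 of a read at an annotated length, and for the other 19 the length was chosen to give them. Over low values of all rows with 1 annotated span, 79.9% to 81.1% per library lay within 0.1 of a whole read. Reads were few: the total over the 7 libraries ran from 9 to 727 per gene with a median of 144, no gene had more than 190 reads in a library, and 35 genes had under 10 reads in at least 1 library. The copies resemble each other, and 30 of the 67 genes with a transcript sequence shared 50% or more of their 50-base windows with another member. How reads that fit several copies were assigned is not stated in the labels, so the split of reads between near-identical copies is uncertain and the class sums are the firmer values. Pou3f2, the gene of Brn2, had values of 77.0, 36.9, 47.3, 96.2, 119, 41.3 and 7.19 in order of time, so it was already present in the library labelled 0 h and lowest at 48 h. Of the cell type markers, all 12 genes of embryonic stem cells had a mean of at least 1 in these libraries, and their summed value lay between 1347 and 2170. That sum hides single markers that moved in opposite directions. Dppa5a, the largest part of it, stood at 1076 at 0 h and 491 at 48 h, and Utf1 at 28.7 and 364. The 12 fibroblast markers summed to 0.668 to 3.57 and the 12 extraembryonic markers to 1.30 to 6.37, of which Foxa2 held 4.62 at 48 h. The 16 neuron markers summed to 12.9, 24.3, 27.4, 28.8, 44.0, 83.5 and 126 in order of time, so that neuronal RNA moved with time in the same libraries, and its part in the histone values was not tested.

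The classes carry different promoter elements, shown here because the genes of a class are read together below. In RefSeq windows of 250 bases before the start (GRCm38.p6, 62 of the 68 genes), the octamer ATTTGCAT, a site of POU-domain factors, lay on either strand in 7 of 18 H2a and 7 of 16 H2b windows. It lay in 0 of 6 H1, 0 of 10 H3 and 0 of 12 H4 windows, and in 1.60% of all 32851 windows. CCAAT, read by the factor NF-Y, lay in all H1, H2a and H2b windows, 8 of 10 H3 and 3 of 12 H4 windows, against 33.8% of all windows. The H1 box AAACACA lay in 5 of 6 H1 windows and 6.25% of all windows. GGTCCG, the core of an H4 element read by Hinfp, lay in 9 of 12 H4 windows and 6.72% of all windows. TATAAA lay in 29 of the 62 windows and 12.4% of all windows. These are matches of letters on both strands and not bound sites, and no printed match overlaps another. The windows of the most abundant gene of each class that has one follow, 5′ to 3′ on the strand of the gene, with matches to the motifs of the class and to TATAAA in capitals. They are H1f2 (chr13:23738557-23738806, forward strand), H2ac22 (chr13:21787249-21787498, reverse strand), H2bc18 (chr3:96269450-96269699, forward strand), H3c3 (chr13:23745522-23745771, reverse strand) and H4c17 (chr13:21811496-21811745, forward strand), all in GRCm38.p6.
H1f2: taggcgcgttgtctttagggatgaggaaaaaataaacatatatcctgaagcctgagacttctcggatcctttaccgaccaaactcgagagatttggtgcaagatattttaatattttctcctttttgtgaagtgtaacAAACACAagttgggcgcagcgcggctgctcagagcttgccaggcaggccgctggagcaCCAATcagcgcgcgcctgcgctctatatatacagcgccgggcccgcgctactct
H2ac22: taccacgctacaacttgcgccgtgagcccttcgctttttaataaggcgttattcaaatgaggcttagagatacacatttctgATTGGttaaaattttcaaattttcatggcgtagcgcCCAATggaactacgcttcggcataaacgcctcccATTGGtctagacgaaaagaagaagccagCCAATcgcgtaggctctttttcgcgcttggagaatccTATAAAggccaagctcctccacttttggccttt
H2bc18: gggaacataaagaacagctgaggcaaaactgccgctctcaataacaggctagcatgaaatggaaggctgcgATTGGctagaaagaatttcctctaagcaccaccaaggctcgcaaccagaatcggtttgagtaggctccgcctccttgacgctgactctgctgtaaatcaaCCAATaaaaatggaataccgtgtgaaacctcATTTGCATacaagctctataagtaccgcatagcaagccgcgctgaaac
H3c3: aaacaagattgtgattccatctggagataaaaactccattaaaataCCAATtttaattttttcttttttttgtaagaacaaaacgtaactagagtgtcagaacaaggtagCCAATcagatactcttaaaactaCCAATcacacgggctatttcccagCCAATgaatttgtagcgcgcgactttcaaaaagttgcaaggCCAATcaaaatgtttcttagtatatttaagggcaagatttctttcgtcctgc
H4c17: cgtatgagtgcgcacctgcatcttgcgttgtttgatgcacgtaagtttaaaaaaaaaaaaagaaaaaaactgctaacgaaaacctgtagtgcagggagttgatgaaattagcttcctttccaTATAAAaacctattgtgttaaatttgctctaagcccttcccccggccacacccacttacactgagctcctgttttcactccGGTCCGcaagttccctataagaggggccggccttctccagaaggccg
In H1f2 the H1 box starts at position -112 and is followed by 1 CCAAT. H2ac22 has 4 CCAAT on both strands and no octamer. H2ac22 and H4c17 each hold 1 TATAAA. H2bc18 has 2 CCAAT and an octamer at position -48. H3c3 has 5 CCAAT, the first at position -204. H4c17 has no CCAAT in this window and GGTCCG at position -47. Positions count back from the annotated start, whose preceding base is -1.

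Histone reads were fewest in the library labelled 0 h. Summed over the 68 genes they made up 96.5, 153, 147, 198, 168, 116 and 194 RPM (reads per M reads of the library) in order of time, which was 1436 reads at 0 h and 3139 at 48 h. The share was 153 RPM (95% Poisson interval 144 to 162) at 2 h, against 96.5 RPM (95% Poisson interval 91.6 to 102) at 0 h. It was 194 RPM (95% Poisson interval 188 to 201) at 48 h, against the same 0 h share, so that the intervals of both later libraries lay clear of that at 0 h. These intervals cover counting error only. The 24 h library was the lowest of the later ones, at 116 RPM (95% Poisson interval 110 to 123), and its interval still lay above that at 0 h. In a bulk sample, fewer cells in S phase and less histone RNA per cell cannot be told apart.

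The class sums were lowest at 0 h in every class but H2b, and the differences between classes were not tested. H1 reads summed to 13.2, 22.3, 24.9, 23.8, 25.3, 15.4 and 22.4 RPM from 0 to 48 h, nearly level from 2 to 14 h and then lower at 24 h. H2a reads summed to 23.6, 27.0, 25.7, 44.1, 38.0, 28.7 and 46.4 RPM, so that the intervals at 2, 4 and 24 h overlapped that at 0 h, and those at 6, 14 and 48 h did not. H2b reads summed to 27.4, 37.4, 40.1, 50.3, 38.2, 26.8 and 48.3 RPM, with 24 h close to 0 h. H3 showed the widest step in RPM between the first libraries, and its reads summed to 16.3, 41.1, 34.2, 46.0, 40.4, 25.7 and 44.2 RPM. For H3 the share was 41.1 RPM (95% Poisson interval 36.7 to 45.9) at 2 h, against 16.3 RPM (95% Poisson interval 14.3 to 18.4) at 0 h. H4 reads summed to 16.0, 24.7, 21.7, 33.6, 25.9, 19.7 and 33.1 RPM, highest at 6 and 48 h with intervals that overlap. Members counted over more than 1 kb, some at a length chosen to give whole reads, weighed on these sums, most at 0 h. They held 81.7% of H1 reads at 0 h, 31.6% of H2a, 57.1% of H2b, 24.8% of H3 and 41.2% of H4 reads. Without them, a choice made after values were seen, H2a reads summed to 16.1, 22.3, 21.0, 33.8, 34.1, 24.3 and 36.4 RPM, and of the later intervals only that at 4 h overlapped 0 h. H2b reads then summed to 11.8, 24.2, 22.6, 25.7, 23.8, 17.4 and 28.6 RPM, with every later interval above that at 0 h, 24 h included, and H1 reads, from 3 genes, to 2.42, 9.45, 7.24, 6.21, 5.49, 4.42 and 4.58 RPM, highest at 2 h.

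**Figure D1:**
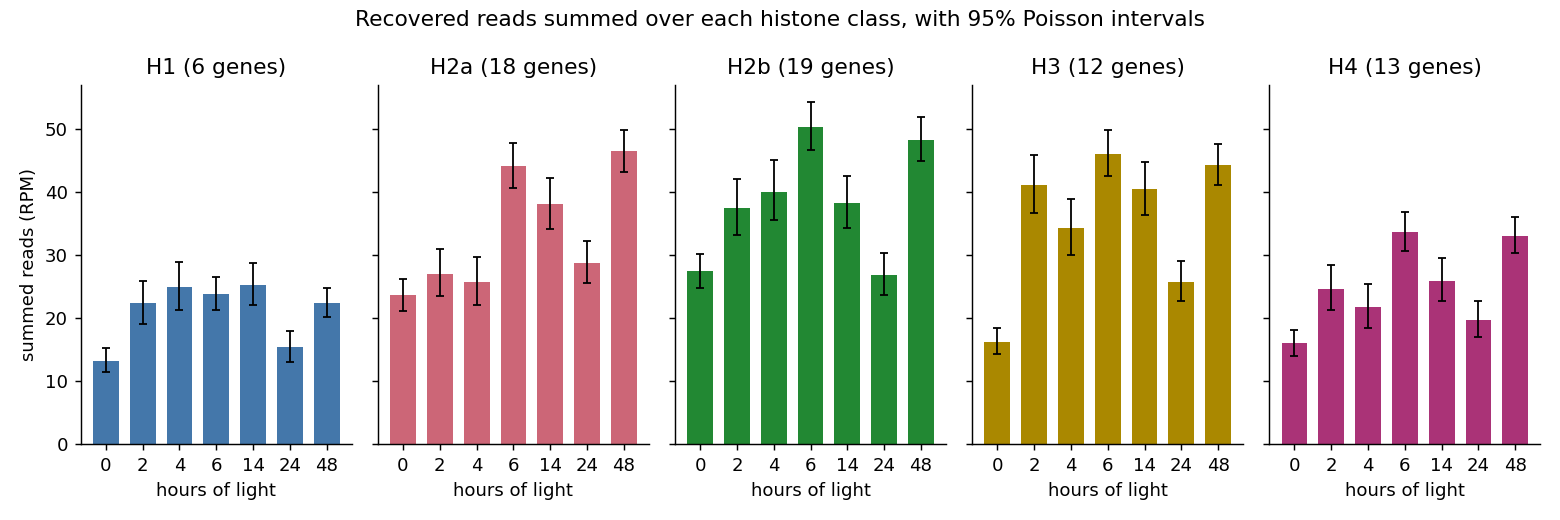
Recovered reads summed over each class, in RPM (y axis, linear from 0), in the 7 libraries in order of hours of light (x axis, not to scale), with error bars of 95% Poisson intervals. H3 stands at 41.1 at 2 h against 16.3 at 0 h, while H2a stands at 27.0 at 2 h against 23.6 at 0 h.

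Gene by gene, 0 h was again the lowest library and 24 h the next in the medians of the 56 genes with a mean value of at least 1, the minimum set for the limma test. On log2 of the value plus 1, the median ratio to the 0 h library was 0.59, 0.60, 0.92, 0.80, 0.41 and 1.02 at 2, 4, 6, 14, 24 and 48 h. Over all 6411 tested genes the medians were -0.034, -0.045, 0.053, 0.016, -0.022 and 0.0037. Of the 56 genes, the number above their 0 h value was 48, 44, 56, 48, 46 and 55 in the same order. Of all 6411 tested genes it was 2924, 2787, 3499, 3308, 3047 and 3224. With 1 added to each value, a level at least 2-fold higher than at 0 h was reached by 13, 12, 24, 22, 8 and 29 of the 56 genes in that order. Of all tested genes, 1.89%, 1.22%, 2.48%, 2.21%, 2.26% and 7.89% reached it. On the same scale none of the 56 was 2-fold or more lower than 0 h in any library, where 1.19%, 0.374%, 0.764%, 1.98%, 1.64% and 5.38% of all tested genes were, from 2 to 48 h. Without the added 1, H2aw, H2ac18, H2bc9 and H3c14 lay more than 2-fold below 0 h in at least 1 library. With 1 library per time, these ratios compare libraries and carry no test.

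The 0 h library gave the lowest value for 36 of the 56 genes (64.3%), against 17.5% of all tested genes. It gave the highest value for 0 of the 56, against 18.6% of all tested genes and 0.843% of the 356 other tested genes over 60% GC. The highest library was 48 h for 20 genes (35.7%), 6 h for 16 (28.6%), 14 h for 9 (16.1%), 4 h for 6, 2 h for 4 and 24 h for 1. Over all tested genes it was 48 h for 24.6%, 6 h for 14.8% and 14 h for 15.3%. Of the other genes over 60% GC, 53.1% were highest at 48 h. By class, 0 h was the lowest library for 4 of 5 H1, 7 of 15 H2a, 5 of 11 H2b, 10 of 12 H3 and 10 of 13 H4 genes. H4 genes were highest at 48 h in 9 of 13 cases, whereas the 5 tested H1 genes were all highest at 2, 4 or 6 h.

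GC content moved with the libraries as well. The 68 genes had a median GC content of 57.9%, against 51.3% over all tested genes. The 356 other tested genes over 60% GC had median ratios to 0 h of 0.096, 0.085, 0.48, 0.43, 0.060 and 0.70 in the same order of time, high at 6, 14 and 48 h like the histone genes, and 0 h was the lowest library for 33.1% of them. When the GC trend of the other genes was removed from each library, the medians of the GC-rich genes were -0.073, 0.0046, -0.018, -0.0037, -0.12 and -0.11. GC-rich genes of mean at least 5 were part of the fit of that trend, so their medians near 0 are no independent comparison. The histone genes were left out of the fit, and their medians were 0.54, 0.58, 0.51, 0.52, 0.24 and 0.42. The step between the 0 h and 2 h libraries was thus nearly as large with that trend removed. Of the 56 genes 46 were higher at 2 h, against 2474 of 6380 over all tested genes. The 6 and 48 h medians then no longer stood above those at 2 and 4 h. Against 2 h, 26 of 56 genes were higher at 6 h and 26 of 56 at 48 h, where 3564 and 3330 of 6380 over all tested genes were. The removal was chosen after seeing the data.

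**Figure D2:**
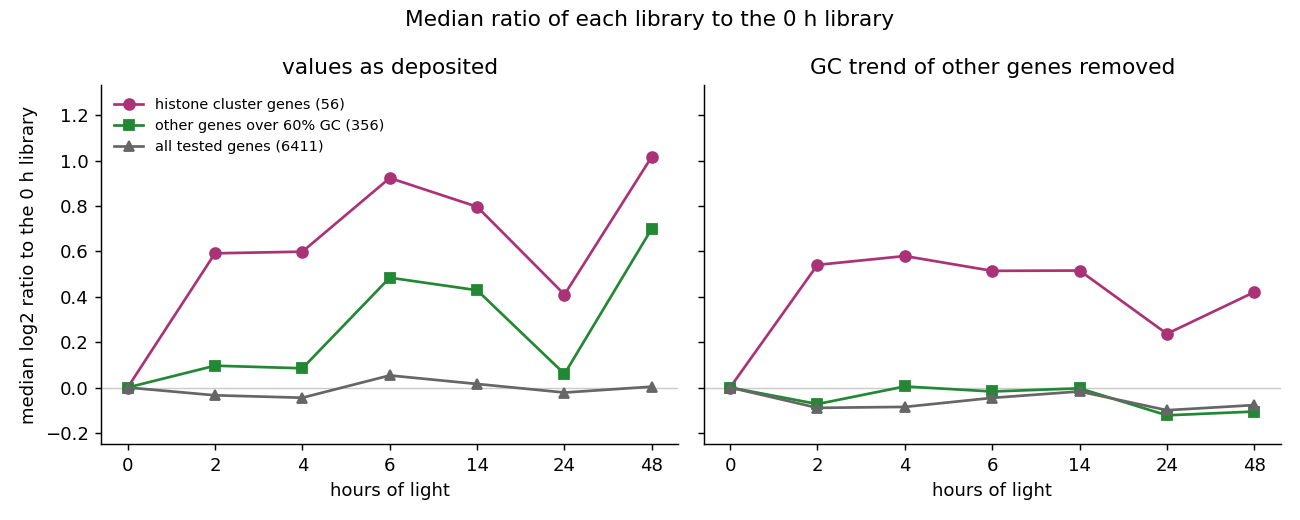
Median log2 ratio to the 0 h library (y axis, on log2 of value plus 1) in each library (x axis, hours of light, not to scale) for the 56 tested histone cluster genes (circles), 356 other genes over 60% GC (squares) and all 6411 tested genes (triangles), as deposited (left) and with the GC trend of other genes removed (right, 56, 354 and 6380 genes). On the right the histone medians stay between 0.24 and 0.58, and the other medians at or near 0. Other genes of mean at least 5 were part of the fit of the removed trend, and the histone genes were not.

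Whether values followed time was tested by limma with a line on log2 of hours plus 1 through the 7 libraries, and each change below is the log2 difference of that line between 0 and 48 h. Of the 56 genes, 51 had a positive fitted change and none passed the test at an adjusted p under 0.05, where 0.296% of the 6411 tested genes rose and 0.0624% fell. The median fitted change was 0.70 for the 56 genes and 0.0059 over all tested genes, of which 50.5% were positive. An unadjusted p under 0.05 was reached by 19 of the 56 genes (33.9%) and by 21.5% of all tested genes. By class the share was 0% of H1, 40% of H2a, 18.2% of H2b, 50% of H3 and 38.5% of H4 genes. Counts at an unadjusted p under 0.05 given below are to be read beside the 21.5% of all tested genes. In a limma-voom fit on the recovered reads, 54 of 60 tested members had a positive change and none passed. Of the 13507 genes in that fit, 47.1% had a positive change and 2.9% passed. The median change was 0.18 without the 0 h library, with 38 of 56 genes positive against 51.8% of all tested genes. It was 0.20 with the GC trend of other genes removed, with 37 of 56 positive and none passing. With that trend removed, 44.2% of all tested genes were positive and 0.235% passed. The size of the fitted change thus depended on the 0 h library, and no histone gene passed the test of a trend with time. Fitted changes below are given ± SE, with p-values adjusted over all tested genes.

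**Figure D3:**
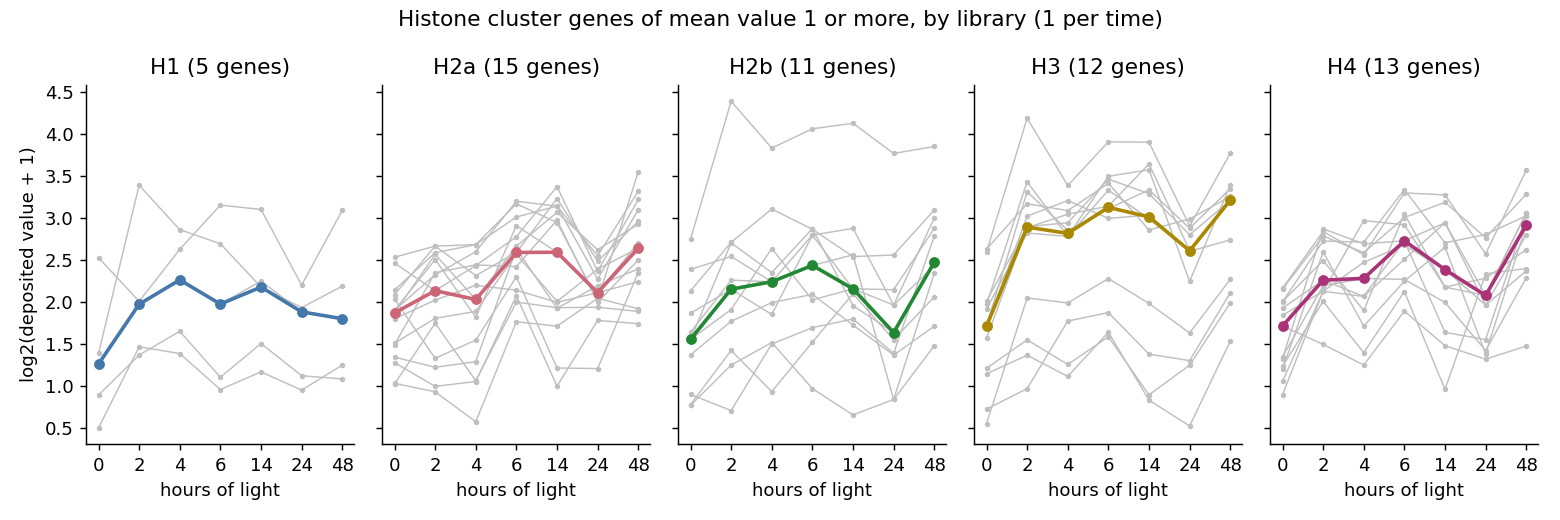
Log2 of the deposited value plus 1 (y axis) in the 7 libraries in order of hours of light (x axis, not to scale) for the tested genes of each class; grey lines are single genes and the coloured line is the class median. The 0 h point is the lowest median in every panel, and the 24 h point lies below 14 h in every panel.

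**Figure D4:**
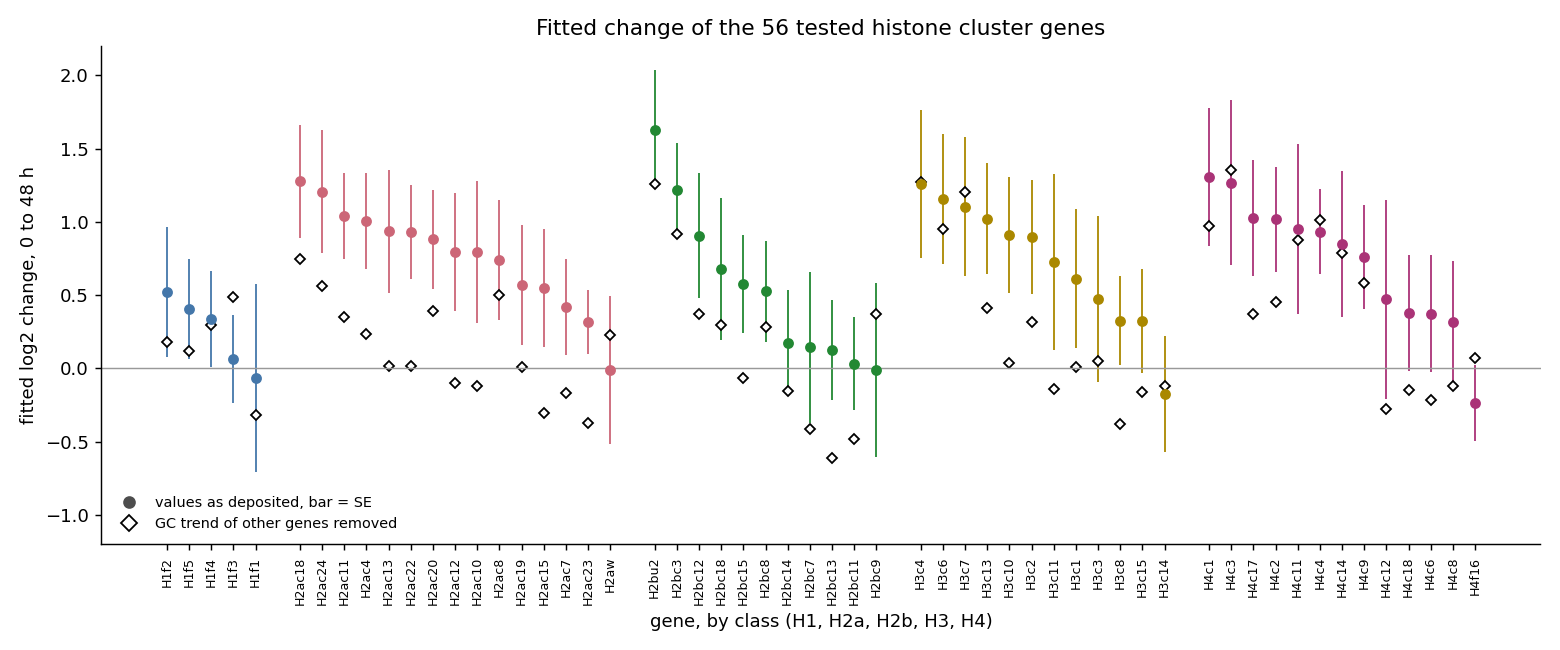
Fitted log2 change over 0 to 48 h (y axis) for each of the 56 tested genes, grouped by class and sorted within it (x axis); filled circles are the values as deposited with bars of 1 SE from limma, and open diamonds the same with the GC trend of other genes removed. For 51 of 56 genes the circle lies above 0, and for 37 of 56 the diamond does.

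The H1 genes encode the linker histones. Of the 5 tested genes of the class, 4 had a positive fitted change, 0 passed the limma test and 0 had an unadjusted p under 0.05, with a median change of 0.34. The median was -0.37 without the 0 h library and 0.18 with the GC trend of other genes removed. H1f2 was the most abundant, with values of 4.78, 3.03, 5.19, 7.91, 7.60, 3.61 and 7.54 from 0 to 48 h. It was higher at 0 h than at 2 h, unlike the other tested H1 genes, and its fitted change was 0.52 ± 0.45, adjusted p = 0.505. H1f1 had values of 1.62, 9.50, 6.28, 5.48, 3.53, 2.83 and 3.57 in order of time, highest at 2 h with 4 and 6 h next, and a fitted change of -0.066 ± 0.64, adjusted p = 0.958. Its log2 ratio of 2 h to 0 h was the largest of the members at 2 h, 2.00. H1f5 had values of 1.40, 2.93, 3.81, 2.94, 3.76, 2.69 and 2.49, lowest at 0 h, and a fitted change of 0.41 ± 0.34, adjusted p = 0.496. H1f3 stayed between 0.858 and 2.15 (fitted change 0.065 ± 0.30, adjusted p = 0.913). H1f6, the testis-specific linker histone, had 21 reads in all and a mean value of 0.296.

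The H2a genes were the richest in GC, with a median of 64.2%, and the most alike, with a median of 73.0% of windows shared. Of the 15 tested genes of the class, 14 had a positive fitted change, 0 passed the limma test and 6 had an unadjusted p under 0.05, with a median change of 0.80. The median was 0.59 without the 0 h library and 0.018 with the GC trend of other genes removed. H2ac22 had values of 3.26, 5.36, 5.43, 7.08, 7.85, 4.87 and 9.00 from 0 to 48 h. It was lowest at 0 h and highest at 48 h, with a fitted change of 0.93 ± 0.32, adjusted p = 0.156. H2ac10 had values of 3.43, 5.02, 5.43, 8.01, 6.72, 3.07 and 10.7 in order of time (fitted change 0.79 ± 0.48, adjusted p = 0.349). H2ac12 had values of 4.53, 3.40, 4.41, 5.87, 9.39, 4.16 and 8.34 (fitted change 0.80 ± 0.40, adjusted p = 0.275). In H2ac12 the 2 h library was the lowest and 14 h the highest. H2ac13 had values of 2.74, 4.02, 5.07, 8.20, 7.85, 3.84 and 7.58 (fitted change 0.93 ± 0.42, adjusted p = 0.233). These genes share 79.7% to 90.7% of their windows with other members, so their separate values are uncertain. H2ac18, of the Hist2 cluster, had the largest fitted change of the class, 1.27 ± 0.39, adjusted p = 0.122, from values of 1.05, 0.910, 0.492, 2.41, 2.28, 3.13 and 2.79. Its near copy H2ac19 shares every window with another member. H2aw, the H2a gene of the Hist3 cluster, was counted at 1989 bases, a length chosen to give whole reads, and its annotated gene overlaps Trim17. H2aw had values of 3.11, 1.52, 1.93, 3.93, 1.33, 1.31 and 4.11. Its 2, 4, 14 and 24 h libraries lay below 0 h and its 6 and 48 h libraries above, with a fitted change of -0.011 ± 0.50, adjusted p = 0.993.

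The H2b genes ranged most widely in level, from a mean of 0.0596 for H2bc6 to 13.9 for H2bc18, the highest of all members. Of the 11 tested genes of the class, 10 had a positive fitted change, 0 passed the limma test and 2 had an unadjusted p under 0.05, with a median change of 0.52. The median was 0.0048 without the 0 h library and 0.28 with the GC trend of other genes removed. H2bc18, which shares no window with another member, had values of 5.74, 20.0, 13.3, 15.7, 16.5, 12.7 and 13.5 from 0 to 48 h. All later libraries lay above 0 h and 2 h was the highest, with 42 reads at 0 h and 107 at 48 h, and the fitted change was 0.68 ± 0.49, adjusted p = 0.423. H2bc8 had values of 3.39, 5.56, 7.63, 6.31, 4.83, 4.91 and 7.56 in order of time (fitted change 0.52 ± 0.34, adjusted p = 0.381). H2bc12 had values of 2.65, 3.45, 2.62, 5.96, 6.36, 2.91 and 7.01 (fitted change 0.90 ± 0.43, adjusted p = 0.249). H2bc13 had values of 4.24, 4.84, 3.74, 5.96, 3.47, 3.44 and 6.35 (fitted change 0.12 ± 0.34, adjusted p = 0.851). H2bc9 was lowest at 24 h, with values of 2.12, 3.80, 3.74, 4.42, 4.91, 0.793 and 4.07 (fitted change -0.0098 ± 0.59, adjusted p = 0.994). H2bu2, an H2b gene of the Hist3 cluster, had the largest fitted change and the lowest adjusted p of all tested members, 1.63 ± 0.41, adjusted p = 0.085. Its values were 0.868, 0.636, 1.84, 2.24, 2.48, 1.62 and 5.90 from 0 to 48 h, from 8 reads at 0 h and 59 at 48 h, so that a single library stood apart, and without the 48 h library its fitted change was 1.02. H2bu2 overlaps the predicted gene Gm51864. With the line drawn on hours in place of log2 of hours it passed the limma test (adjusted p = 0.04), as did 2.96% of all tested genes.

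The H3 genes showed the clearest separation of the 0 h library. Of the 12 tested genes of the class, 11 had a positive fitted change, 0 passed the limma test and 6 had an unadjusted p under 0.05, with a median change of 0.81. The median was 0.030 without the 0 h library and 0.046 with the GC trend of other genes removed. H3c3 had values of 5.05, 17.3, 9.49, 14.0, 14.0, 6.50 and 12.7 from 0 to 48 h. Its 0 h library was the lowest and 2 h the highest, and the fitted change was 0.47 ± 0.56, adjusted p = 0.642. H3c11 had values of 2.93, 9.80, 5.89, 10.3, 10.9, 3.75 and 9.51 in order of time (fitted change 0.73 ± 0.60, adjusted p = 0.486). H3c8 had values of 5.20, 8.02, 7.52, 9.67, 6.26, 6.96 and 8.58 (fitted change 0.32 ± 0.30, adjusted p = 0.541). H3c11 was low at 24 h as well as at 0 h. H3c6 had values of 2.29, 8.96, 6.23, 7.66, 9.11, 6.37 and 9.21 (fitted change 1.15 ± 0.44, adjusted p = 0.179). H3c4 had values of 1.97, 6.40, 7.27, 7.84, 11.5, 5.14 and 8.31 and the largest fitted change of the class, 1.26 ± 0.51, adjusted p = 0.193, which was 1.27 with the GC trend of other genes removed. In H3c4 and H3c6 all later libraries lay more than 2-fold above 0 h on the values as deposited. H3c14, of the Hist2 cluster, did not share this order, with values of 1.22, 1.58, 1.17, 2.12, 0.783, 0.441 and 1.90 and a fitted change of -0.17 ± 0.40, adjusted p = 0.818.

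The H4 genes had the largest class median of fitted change. Of the 13 tested genes of the class, 12 had a positive fitted change, 0 passed the limma test and 5 had an unadjusted p under 0.05, with a median change of 0.85. The median was 0.22 without the 0 h library and 0.45 with the GC trend of other genes removed. H4c17 had values of 3.49, 6.17, 4.92, 8.86, 8.70, 4.97 and 10.9 from 0 to 48 h. It was lowest at 0 h and highest at 48 h (fitted change 1.03 ± 0.39, adjusted p = 0.178). H4c4, which shares only 10.2% of its windows, had values of 3.46, 5.91, 5.02, 7.05, 8.12, 5.81 and 8.76 in order of time and a fitted change of 0.93 ± 0.29, adjusted p = 0.128. H4c9 had values of 3.01, 5.63, 5.56, 9.13, 5.53, 6.00 and 7.16 (fitted change 0.76 ± 0.36, adjusted p = 0.245). H4c3 had values of 1.08, 3.38, 6.85, 6.58, 3.53, 3.23 and 7.37 (fitted change 1.27 ± 0.56, adjusted p = 0.227). H4c1 had values of 0.864, 3.38, 4.57, 5.40, 4.24, 2.91 and 5.97 (fitted change 1.31 ± 0.47, adjusted p = 0.16). In H4c3, H4c1, H4c4 and H4c9 every later library lay above 0 h. H4f16, the lone H4 gene of the Hist4 locus, had values of 2.29, 1.82, 1.38, 2.72, 1.79, 1.50 and 1.79 and a fitted change of -0.24 ± 0.26, adjusted p = 0.609. It was counted at 2878 bases, a length chosen to give whole reads. It was the only tested H4 gene below 0 h at 48 h.

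The Hist1 cluster on chromosome 13 holds most of the genes. There 43 of 45 tested genes had a positive fitted change (median 0.73), 33 were lowest at 0 h and 42 were higher at 2 h than at 0 h. In the Hist2 cluster on chromosome 3, 7 of 8 were positive (median 0.76), 3 were lowest at 0 h and 6 were higher at 2 h. Of the 2 tested Hist3 genes on chromosome 11 and the 1 Hist4 gene on chromosome 6, none was lowest at 0 h and none was higher at 2 h. Among H2b genes, the median fitted change was 0.68 for the 5 tested genes with the octamer in their window and 0.13 for the 6 without it. Among H2a genes the order was the other way, with 0.80 for 5 with it and 0.86 for 10 without it. With the GC trend of other genes removed, the median was higher with the octamer in both classes. It was then 0.30 with it and -0.24 without it among H2b genes, and 0.23 and 0.013 among H2a genes. The median GC content was 57.2% with the octamer and 63.9% without it over both classes. These differences carry no test.

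Genes counted over a long span differed from the compact ones in the 2 h library. The compact group, 53 genes with a span of up to 1 kb, includes the 31 whose span lies within 1 base of the coding length, and the 15 genes over 1 kb include H1f2, H2aw, H2bc4, H2bc21 and H4f16. Reads of the compact genes summed to 51.9, 108, 96.3, 128, 119, 82.9 and 131 RPM in order of time, and those of the long-span genes to 44.6, 44.1, 50.3, 70.2, 48.6, 33.5 and 63.0 RPM. For the compact genes the share was 108 RPM (95% Poisson interval 101 to 116) at 2 h, against 51.9 RPM (95% Poisson interval 48.4 to 55.7) at 0 h. For the long-span genes it was 44.1 RPM (95% Poisson interval 39.5 to 49.1) at 2 h, against 44.6 RPM (95% Poisson interval 41.2 to 48.1) at 0 h. Of the compact genes 47 of 53 were higher at 2 h than at 0 h, and of the long-span genes 9 of 15, with median log2 ratios of 0.60 and 0.066. H3c7 had the largest ratio of the long-span genes, a log2 ratio of 1.50, at 1002 bases, just above the limit. That length was chosen to give whole reads, as were those of H1f3, H2aw, H2ac6, H2bc21, H2bc22, H3c14 and H4f16. The split rests in part on these choices. H2bc22 was placed at 1725 bases against a transcript of 621. H4c14, among the compact genes, was placed at 347 bases against a transcript of 1630. The median fitted change was 0.78 for 48 tested compact genes and 0.19 for 8 tested long-span genes, or 0.18 and 0.20 with the GC trend of other genes removed. The median GC content was 59.8% in the compact genes and 47.9% in the others. The split was chosen after values were seen, and the difference carries no test.

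**Figure D5:**
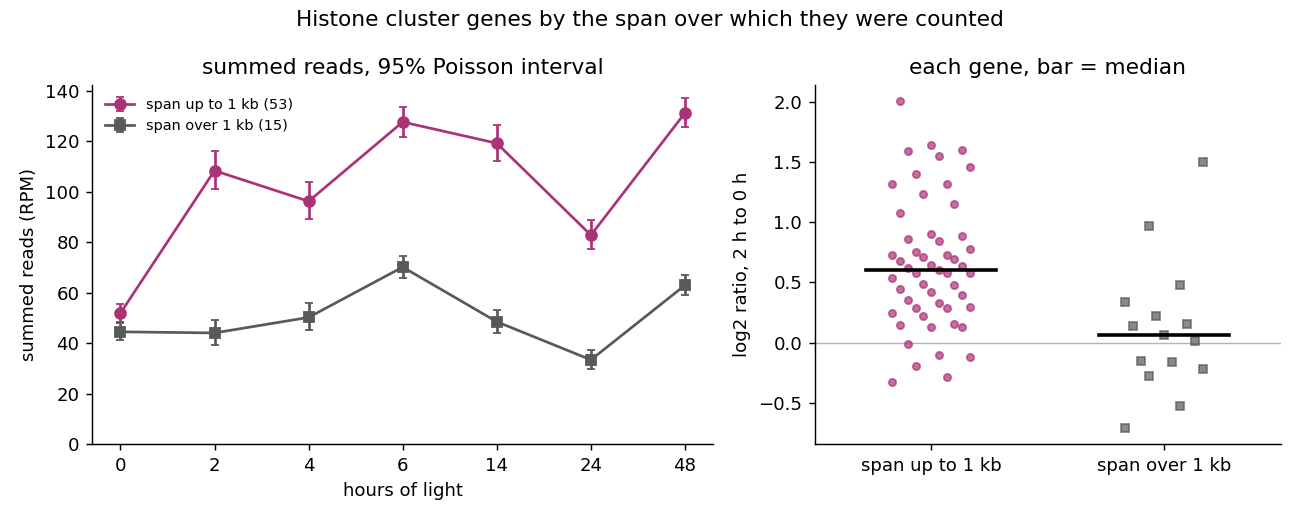
Left: summed reads in RPM (y axis, linear from 0) with 95% Poisson intervals in each library (x axis, hours of light, not to scale) for 53 genes counted over up to 1 kb (circles) and 15 counted over more (squares). Right: log2 ratio of the 2 h to the 0 h library for each gene in both groups, with a bar at the median of 0.60 and 0.066. For some genes the length was chosen to give whole reads.

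The 12 members under a mean value of 1 did not enter the limma test. They are H1f6, H2ac21, H2ac1, H2ac6, H2bc1, H2bc21, H2bc4, H2bc22, H2bc23, Hist1h2br (named H4bc24 in the reference), Hist3h2bb and H2bc6. Their means ran from 0.0596 to 0.990, and 3 of them stood at 0 in at least 1 library. The limma-voom fit tested 7 of them, and none passed. Just under the minimum lay H2bc1, the testis-specific H2b, at 0.990 and H2bc21 at 0.975, and just over it H2bc14 at 1.15 and H1f4 at 1.19. H2bc1 had values of 0, 0.685, 0.742, 1.14, 1.43, 1.31 and 1.62 in order of time, with 0 at 0 h. H2bc6 and H2bc4 were counted over 37425 and 8282 bases, so their values per kilobase are low for their 175 and 583 reads.

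Genes that make, process or use histone mRNA had fitted changes around 0 as lists. Of the 31 tested factors of histone gene transcription and mRNA processing, 11 had a positive fitted change and none passed the limma test, with a median of -0.14. An unadjusted p under 0.05 was reached by 4 of the 31, where 21.5% of all tested genes reached it. Npat had values of 3.22, 3.06, 2.22, 2.17, 2.72, 2.95 and 1.57 from 0 to 48 h (fitted change -0.46 ± 0.26, adjusted p = 0.325). Slbp, the stem-loop binding protein, had values of 14.4, 13.6, 9.93, 9.39, 14.4, 14.2 and 10.1 (fitted change -0.20 ± 0.32, adjusted p = 0.741), so both were lower at 4 and 6 h than at 0 h. Cdk2, the kinase of Npat, had values of 10.6, 14.1, 12.5, 11.3, 12.1, 16.6 and 18.3 (fitted change 0.62 ± 0.27, adjusted p = 0.225). Nfyb, a subunit of NF-Y, had values of 8.96, 5.64, 8.21, 5.27, 5.30, 6.15 and 2.38 (fitted change -1.16 ± 0.36, adjusted p = 0.128), lowest at 48 h. Casp8ap2, a component of histone gene bodies, had a fitted change of -0.59 ± 0.20, adjusted p = 0.149 and Yy1 of -0.53 ± 0.26, adjusted p = 0.26. The 43 tested genes of DNA replication had a median of -0.068, with 19 positive, none passing and 9 at an unadjusted p under 0.05, against the same 21.5%. Their summed value was 577, 638, 597, 532, 571, 646 and 558 in order of time, with 0 h neither lowest nor highest. Among them Gins2, of the replicative helicase, had a fitted change of 1.08 ± 0.23, adjusted p = 0.0658, Tk1, thymidine kinase, 1.14 ± 0.24, adjusted p = 0.0658, Pold1, a DNA polymerase subunit, 0.95 ± 0.40, adjusted p = 0.212 and Dbf4, the activator of Cdc7, -0.93 ± 0.27, adjusted p = 0.115. Gins2 and Tk1 passed the limma-voom test (adjusted p = 0.0447 and 0.0378), 2 of the 47 listed genes in that fit (4.26%), where 2.9% of all genes passed.

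The list of histone chaperones and importers had 26 tested genes, with a median fitted change of -0.048, 11 positive and none passing the limma test. Of these, 3 had an unadjusted p under 0.05, where 21.5% of all tested genes did. The 26 include Sptlc2 (fitted change -0.38), which is not a histone chaperone and entered through a synonym of a listed name. Ipo4, which imports new H3 and H4, had a fitted change of 1.16 ± 0.33, adjusted p = 0.115, Asf1a, a chaperone of H3 and H4, -0.89 ± 0.35, adjusted p = 0.18, Hat1, which acetylates new H4, -0.87 ± 0.38, adjusted p = 0.221 and Set -0.68 ± 0.39, adjusted p = 0.322. Of the 9 tested replication-independent histones, whose mRNAs carry a poly(A) tail or, for H2ax, occur in both forms, 8 had a positive fitted change. Their median was 0.36, none passed the limma test and 3 of the 9 had an unadjusted p under 0.05, where 21.5% of all tested genes did. H1f0, the linker histone of resting and differentiated cells, had values of 16.8, 13.1, 16.9, 20.3, 35.5, 39.3 and 56.9 (fitted change 2.01 ± 0.37, adjusted p = 0.053). H1f10 had values of 11.4, 19.4, 16.5, 29.5, 34.8, 25.2 and 60.5 (fitted change 1.98 ± 0.38, adjusted p = 0.0551). Both rose in limma-voom (adjusted p = 0.0204 and 0.0309), where 2.9% of all genes passed. With the GC trend of genes outside the clusters removed, the fitted change was 1.85 for H1f0 (limma, adjusted p = 0.0781) and 0.88 for H1f10 (limma, adjusted p = 0.188). Both genes were themselves part of the fit of that trend, and the GC content of H1f10, 71.3%, was the highest in it. H1f10 was lowest at 0 h and H1f0 at 2 h. H2az1, the variant at promoters, had values of 273, 374, 370, 432, 318, 567 and 612 (fitted change 1.02 ± 0.31, adjusted p = 0.124), and H2ax, the variant phosphorylated at DNA breaks, 263, 163, 161, 341, 333, 250 and 474 (fitted change 0.97 ± 0.48, adjusted p = 0.264). H2ax was lower at 2 and 4 h than at 0 h. Of the 15 tested cluster H2a genes, 10 and 8 were higher at those times, against 2924 and 2787 of all 6411 tested genes. With the GC trend of other genes removed, 9 and 7 of the 15 were higher, against 2474 and 2477 of 6380.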

How the data were processed

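RNA, total RNA per the labels, was sequenced in 7 libraries, 1 per time of light. The submitters' processing notes name Bowtie2 and mm9, with no version. The counting method, strand use and unit were not given in sources used here. The deposited signal, 1 value per RefSeq transcript and library, was found here to be whole reads divided by genomic span and library size. Spans came from GRCm38, so read numbers are approximate; 50 of 69 rows of these genes gave whole reads at an annotated length and the others at the smallest length that did.

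Of 30673 rows, 3320 start-site rows were 0 throughout, and 27353 were transcripts. The row of highest mean was used per gene. Trends were tested with limma 3.58.1 (eBayes with trend, R 4.3.3) on log2(deposited value + 1) and log2(hours + 1), over 6411 genes of mean at least 1, with 5 residual degrees of freedom and Benjamini-Hochberg adjustment over all of them; p-values measure the scatter of single libraries around a line. Tested on simulated data with 6411 genes, it called 49 of 67 set to change 2-fold and 67 of 67 set to change 4-fold. These rates hold for the noise and levels set in the simulation and are no measure of power for the histone genes. Of the 56 tested histone genes, 20 had a mean of at least 5. The SE of the fitted change differed between them, at 0.22 for H2ac23 and 0.68 for H4c12. Whether the rates hold for the histone genes was not tested. Among the replication-independent histones, H1f0 and H1f10 had fitted log2 changes of 2.01 and 1.98 in the deposited values and did not pass (limma, adjusted p = 0.053 and 0.0551). The limma-voom fit needed 10 reads in 3 libraries. The GC trend was a spline of 5 degrees of freedom over 2439 other genes of mean at least 5. Named genes were the 4 of highest mean per class, the 5 largest and 5 smallest fitted changes, Npat, Slbp and up to 4 genes per list; genes named for their span, their place near the mean of 1 or a single value were chosen after seeing values, and not every gene the rule names is reported. The members and lists were chosen with earlier results of these data known. None of 26 listed RNAs without a poly(A) tail was found in the table. Alternatives are in the closing section.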

Additional observations from a re-analysis of the deposited data

How the results depend on the processing

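Under the settings below, of which the removal of the GC trend of other genes was added after seeing the data, no histone cluster gene passed the trend test except H2bu2 with the line on hours (1 gene). The number of genes passing among all tested was 23. It was 1 with quantile normalization, 43 with a pseudocount of 0.1, 0 with a pseudocount of 5, 0 with no filter, 0 with the GC trend of all genes removed, 55 with the order of time points, 190 with hours, 392 in limma-voom and 15 with the GC trend of other genes removed. With each library left out in turn it ran from 1 to 76. The median fitted change of the histone genes, 0.70, was 0.16 with the GC trend of all genes removed and 0.20 with that of other genes removed, and ran from 0.18 without the 0 h library to 0.88 without the 24 h library. The median log2 ratio of 48 h to 0 h, 1.02, was 0.51 with a pseudocount of 5, 0.33 with the GC trend of all genes removed and 0.42 with that of other genes removed. The cause was not tested. No paired analysis was possible because each time has 1 library and no replicate number.

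The fitted change of some named genes, none of which had passed the test, changed sign. With the GC trend of all genes removed it was 0.070 for Casp8ap2, -0.11 for H2ac10, -0.097 for H2ac12, 0.25 for H2aw, -0.66 for H2bc13, 0.40 for H2bc9, -0.15 for H3c11, -0.40 for H3c8, 0.16 for H4f16 and 0.17 for Npat. With a pseudocount of 0.1 it was 0.033 for H1f1. In limma-voom it was 0.21 for H1f1 and 0.011 for H2bc9. With the order of time points it was -0.013 for H1f3 and 0.079 for H2aw. With the line on hours it was -0.17 for H1f3, 0.37 for H2aw and 0.019 for H3c14. With the GC trend of other genes removed before 1 was added it was -0.12 for H2ac10, -0.098 for H2ac12, 0.22 for H2aw, -0.61 for H2bc13, 0.37 for H2bc9, -0.14 for H3c11, -0.38 for H3c8, 0.071 for H4f16 and 0.039 for Npat. With a pseudocount of 5 it was 0.020 for H2aw and 0.044 for H2bc9. With each library left out in turn it ran from -1.81 to 0.40 for H1f1, -0.48 to 0.31 for H1f3, -0.34 to 0.79 for H1f5, -0.82 to 0.53 for H2aw, -0.34 to 0.32 for H2bc13, -0.55 to 1.04 for H2bc18, -0.71 to 0.69 for H2bc9, -0.34 to 1.28 for H3c11, -0.74 to 0.17 for H3c14, -0.68 to 0.91 for H3c3, -0.11 to 0.42 for H3c8 and -0.35 to 0.028 for Slbp. Few reads limit single genes: with 9 to 727 reads per gene over all libraries, ratios of single genes between libraries carry wide counting error.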
